A study of Homo sapiens with 18 samples.

Results

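The 10 genes described here encode 3 ErbB receptors (EGFR, ERBB2 and ERBB3), 6 of their ligands (EREG, AREG, HBEGF, TGFA, BTC and NRG1) and the inhibitor ERRFI1, and they were taken by name from the 32490 gene names of the series. They are listed with 80 of the 145326 transcripts. RNA was sequenced from spheroidal aggregates of U87 mg, an established glioblastoma line, and DAOY, an established medulloblastoma line, embedded in Matrigel in electrotaxis channels. A direct-current electric field (dcEF) of 250 V/m was applied for 2 or 8 h, and channels taken at 0 h had no field (n = 3 for each cell line and time, 18 samples in all). Each sample pooled 3 channels, so the replicates are separate preparations of 1 cell line and not separate tumours. The series as used here holds no unexposed channel kept for 2 or 8 h, and therefore exposure and channel time cannot be told apart.

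ErbB receptors are tyrosine kinases of the cell surface that pair up when an EGF-like ligand binds and then signal through RAS, ERK and PI3K. EGFR binds EREG, AREG, HBEGF, TGFA and BTC, while NRG1 binds ERBB3 and ERBB4, and ERBB2, which has no ligand of its own, serves as the preferred partner. Most ligands are made as membrane-bound precursors and are shed by metalloproteases of the ADAM family. EGFR is often amplified or mutated in glioblastoma, and signalling through it induces ERRFI1 (also called MIG6), which binds the kinase domain and shuts the receptor down.

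The ligands share one folded unit, the EGF-like domain, which contacts the receptor. The coding sequence of this domain is shown for the 5 EGFR ligands because the 2 cell lines differ most in which of them they express. It was found in the GENCODE 29 transcripts by its 6 cysteines, whose codons are in capitals.

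EREG: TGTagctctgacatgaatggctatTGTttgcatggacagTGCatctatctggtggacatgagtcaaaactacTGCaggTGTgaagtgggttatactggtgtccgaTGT
AREG: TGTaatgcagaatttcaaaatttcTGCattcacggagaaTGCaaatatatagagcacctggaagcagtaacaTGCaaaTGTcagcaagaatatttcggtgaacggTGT
HBEGF: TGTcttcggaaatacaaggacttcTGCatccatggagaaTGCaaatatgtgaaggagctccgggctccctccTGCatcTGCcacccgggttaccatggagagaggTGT
TGFA: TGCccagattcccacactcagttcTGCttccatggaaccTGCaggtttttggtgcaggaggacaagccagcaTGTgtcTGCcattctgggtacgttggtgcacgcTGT
BTC: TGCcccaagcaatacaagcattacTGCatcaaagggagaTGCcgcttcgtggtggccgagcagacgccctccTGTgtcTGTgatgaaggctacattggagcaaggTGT

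All 5 stretches were 108 bases long and had the same spacing of 7, 4, 10, 1 and 8 residues between successive cysteines. The search itself required the spacings of 7, 1 and 8 and allowed 4 or 5 and 10 to 13 for the rest. The stretches covered residues 68 to 103 of EREG, 146 to 181 of AREG, 108 to 143 of HBEGF, 47 to 82 of TGFA and 69 to 104 of BTC. In spite of the shared fold, the EREG and AREG transcripts had no word of 31 bases in common, and none of their reads could have matched both over such a length. Among all pairs of the 10 genes, only ERBB2 with EREG (13 words) and ERBB3 with EREG (8 words) shared any.

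The libraries held 8341976 to 15610886 estimated counts. Levels are given in TPM, an abundance unit corrected for transcript length and sequencing depth, and summed over the transcripts of a gene. VIM and CD44 were abundant in both lines (medians of 4561 and 2903 TPM in U87 mg, 2133 and 1150 TPM in DAOY). Neither line held the whole set of markers of its labelled lineage. Of 8 glioma and astroglial markers, 4 had a median of at least 1 TPM in U87 mg (VIM, CD44, SLC1A3 at 43.7 TPM and NES at 7.62 TPM) and 4 in DAOY (VIM, CD44, SLC1A3 at 13.8 TPM and SOX2 at 5.13 TPM). In U87 mg, S100B and SOX2 had medians of 0 TPM and GFAP one of 0.958 TPM. Of 8 medulloblastoma and granule-lineage markers, 4 reached that level in DAOY (PAX6 at 23.3, ZIC1 at 12.2, ZIC2 at 10.8 and OTX2 at 1.80 TPM) and 4 in U87 mg (PAX6 at 21.4, ZIC1 at 6.48, ZIC2 at 4.75 and GLI1 at 2.99 TPM). In DAOY, GLI1, BARHL1 and NEUROD1 had medians of 0 TPM. ATOH1, another of the 8, was not among the gene names of the series, so it has no value in either line. Among markers of other cells, the leukocyte marker PTPRC had medians of 0.0227 TPM in U87 mg and 0.0296 TPM in DAOY. The endothelial marker PECAM1 was at 1.23 TPM in U87 mg and 7.53 TPM in DAOY. The neuronal marker SYP was at 1.20 and 3.45 TPM, and the epithelial marker EPCAM at 1.66 and 0.672 TPM. CDH1, CDH3, CDH5, CD14 and RBFOX3 had medians below 1 TPM in both lines.

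Among the receptors, EGFR was by far the most abundant in both lines. At 0 h, U87 mg held EGFR at 40.9, 43.5 and 45.9 TPM, and DAOY held it at 52.9, 46.6 and 57.3 TPM. ERBB2 ranged from 1.12 to 4.17 TPM over the 9 U87 mg samples and from 3.29 to 9.02 TPM over the 9 DAOY samples. ERBB3 was near the limit of detection, with at most 1.04 TPM in any U87 mg sample and 2.41 TPM in any DAOY sample, and too low to be tested. The order EGFR, ERBB2, ERBB3 held in both lines with no overlap of the ranges. ERBB4, the fourth receptor, was at no more than 5 counts in any sample.

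**Figure D1:**
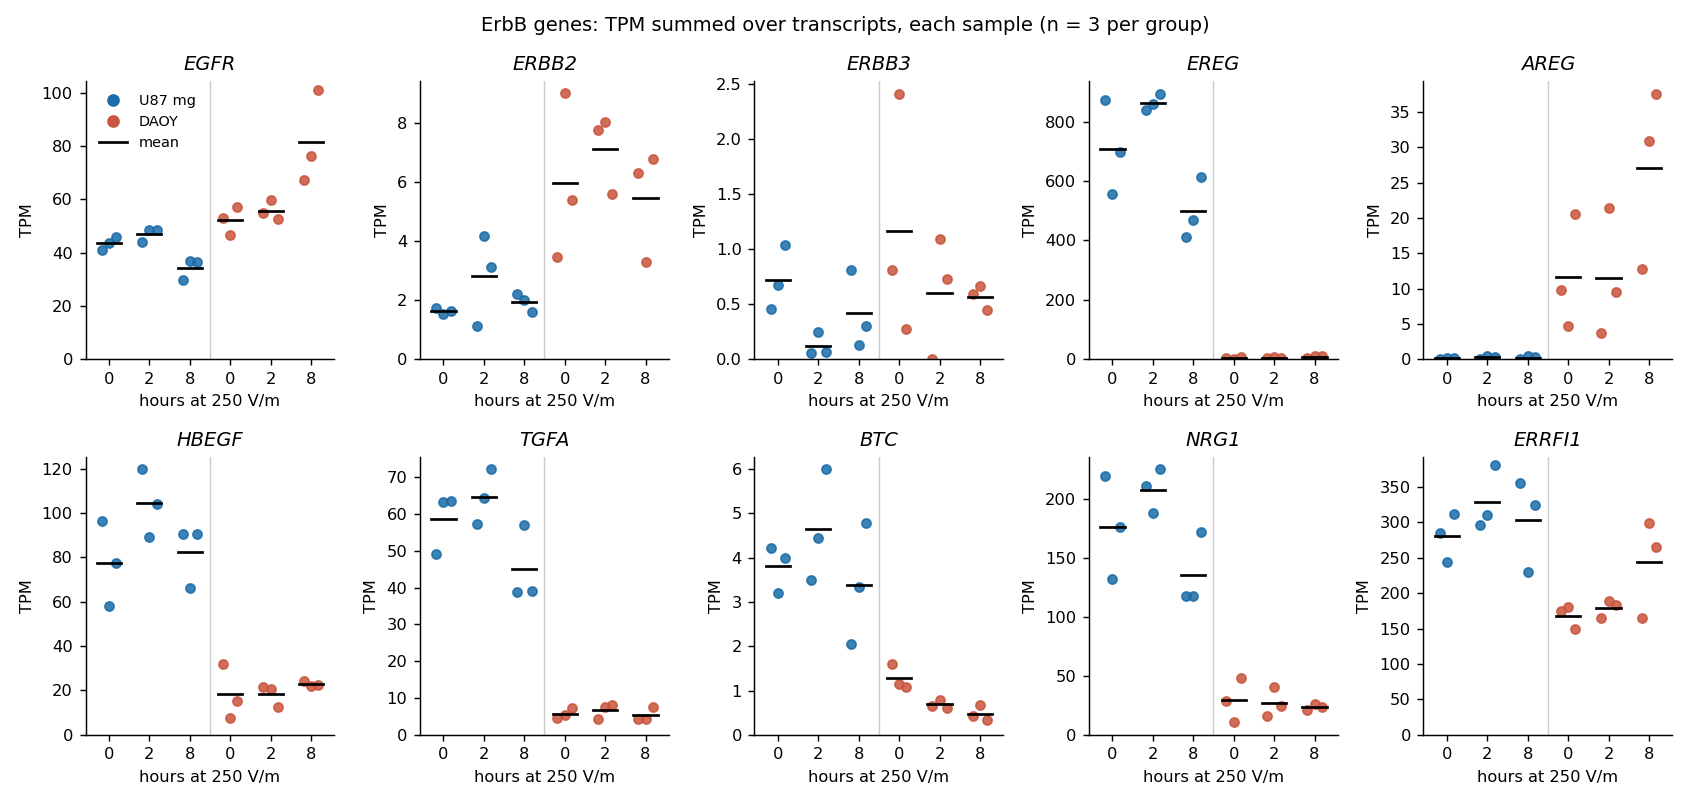
TPM of each of the 10 genes in every sample, with hours at 250 V/m on the horizontal axis, U87 mg in blue, DAOY in red and the mean of 3 samples as a black line; each panel has its own scale from 0. EREG, HBEGF, TGFA, BTC and NRG1 sat higher in every U87 mg sample than in any DAOY sample, AREG the reverse, and EGFR at 8 h lay below its 0 h values in U87 mg and above them in DAOY.

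EREG (epiregulin) was the leading ligand of U87 mg, at 873, 555 and 698 TPM at 0 h. In DAOY at 0 h it was at 3.03, 1.84 and 6.80 TPM, so that no DAOY sample came near any U87 mg sample. AREG (amphiregulin), its neighbour on chromosome 4, had the opposite pattern, with 0 to 3 counts in every U87 mg sample and 9.79, 4.66 and 20.5 TPM in DAOY at 0 h. HBEGF, a heparin-binding ligand, ranged from 58.1 to 120 TPM over the U87 mg samples and from 7.68 to 31.8 TPM over the DAOY samples. TGFA was at 38.7 to 72.2 TPM in U87 mg and 4.16 to 7.97 TPM in DAOY. NRG1 (neuregulin 1), the ligand of ERBB3 and ERBB4, was at 117 to 225 TPM in U87 mg and 11.1 to 48.4 TPM in DAOY. BTC (betacellulin) was the least abundant ligand but for AREG in U87 mg, between 2.05 and 5.998 TPM, and at 0.326 to 1.61 TPM it was the least abundant in DAOY, where it had only 3 to 13 counts. ERRFI1 was higher than either receptor in all 18 samples, at 230 to 381 TPM in U87 mg and 150 to 299.6 TPM in DAOY.

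The 6 ligands together made 659 to 1300 TPM in U87 mg and 31.8 to 102 TPM in DAOY. In U87 mg, EREG held a median of 68.4% of this sum (62.3% to 71.3%), NRG1 17.3%, HBEGF 8.00%, TGFA 5.55%, BTC 0.392% and AREG 0.0178%. The order EREG, NRG1, HBEGF, TGFA held by median, and only the last 2 came close, with shares of 7.16% to 13.7% and 3.97% to 8.02%. In DAOY no ligand led so clearly. NRG1 held a median of 35.0%, HBEGF 23.7%, AREG 19.7%, TGFA 7.40%, EREG 5.80% and BTC 1.06%, and the ranges of the first 3 overlapped (23.1% to 48.7%, 15.3% to 43.7% and 7.60% to 36.7%). The place of NRG1 depends on summing all its transcripts. Its transcript with the most counts, ENST00000356819, held 73.3% of NRG1 counts in DAOY at 0 h but a mean of 6.75 of 29.3 TPM. The leading transcripts of AREG and HBEGF had means of 11.6 and 9.02 TPM there. In U87 mg at 0 h, ENST00000356819 had a mean of 57.1 TPM, beside 57.7 and 57.2 TPM for the leading HBEGF and TGFA transcripts.

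**Figure D2:**
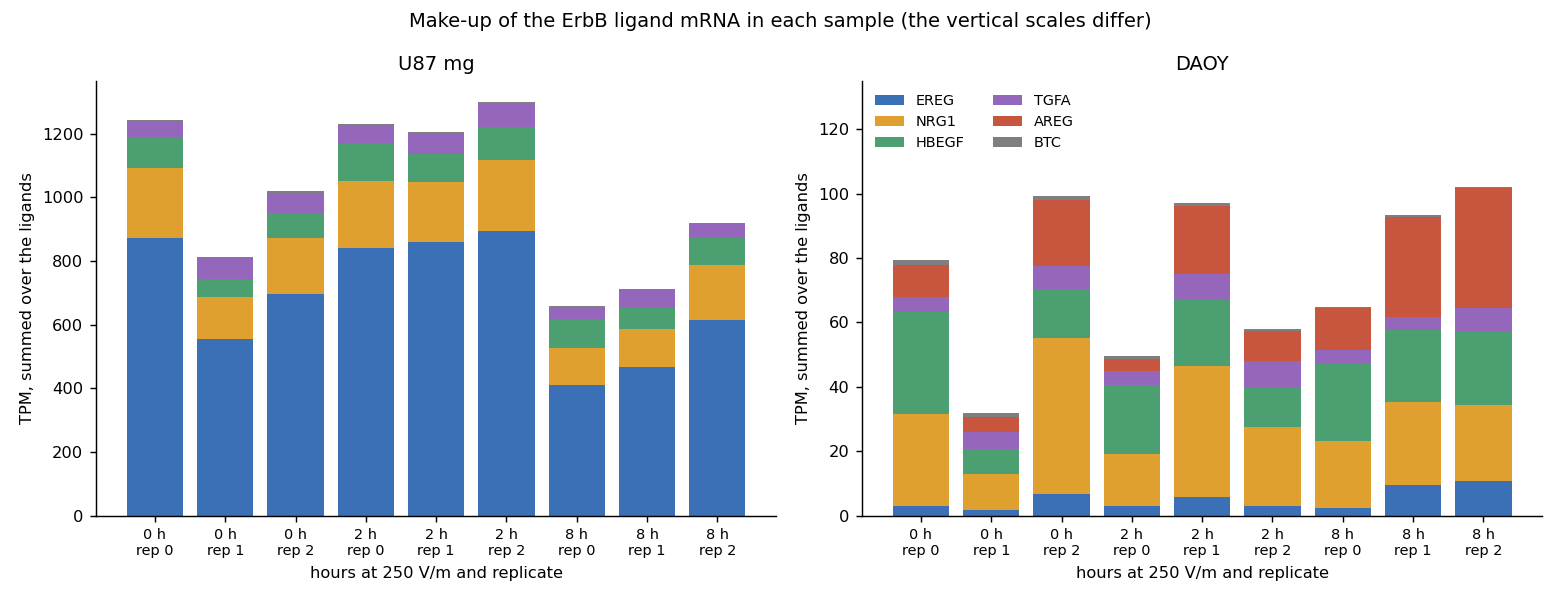
TPM of the 6 ligands stacked for each sample, with the hours at 250 V/m and the replicate on the horizontal axis; the vertical scales of the panels differ. EREG makes up most of every U87 mg bar, with a median share of 68.4%, and NRG1, HBEGF and AREG share most of the DAOY bars.

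At 0 h, 2 of the 9 genes tested were higher in DAOY and 5 were lower by both criteria used for differential expression, a false discovery rate (FDR) below 0.05 and a log2 fold change of at least 1 in size. Over all 16482 genes tested, 23.4% were higher and 17.8% were lower by these criteria, so that a difference between the lines was common. All 18 samples were fitted together in edgeR (quasi-likelihood test, Benjamini-Hochberg adjusted p). EREG was lower in DAOY by a log2 fold change of -7.62 ± 0.64 (SE, adjusted p = 1.86e-08). TGFA was lower by -3.40 ± 0.25 (adjusted p = 3.2e-09), NRG1 by -3.08 ± 0.38 (adjusted p = 1.78e-06), BTC by -2.59 ± 0.41 (adjusted p = 3.21e-05) and HBEGF by -2.38 ± 0.33 (adjusted p = 8.67e-06). ERRFI1 passed the FDR but not the fold criterion, at -0.76 ± 0.23 (adjusted p = 0.00846). ERBB2 was higher in DAOY by 2.27 ± 0.35 (adjusted p = 2.13e-05), and its exons overlap MIEN1 and PGAP3 on the opposite strand, whose reads cannot be told apart from its own if strand was not used in counting. AREG was at least 33.7-fold higher in DAOY, set against a floor of 3 counts per U87 mg library (adjusted p = 1.99e-05). EGFR did not pass the test, at 0.21 ± 0.16 (95% interval -0.12 to 0.54, adjusted p = 0.25). All 8 genes that passed did so under each alternative that tested them, and EGFR under none. In bulk samples, a lower share of expressing cells and less RNA per cell cannot be told apart.

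On GRCh38 (GENCODE 29 genes), EGFR lies at chromosome 7, 55019021 to 55211628, ERBB2 at chromosome 17, 39687914 to 39730426, and ERBB3 at chromosome 12, 56076799 to 56103505, all on the plus strand. HBEGF lies at chromosome 5, 140332843 to 140346631, TGFA at chromosome 2, 70447280 to 70554193, and ERRFI1 at chromosome 1, 8004404 to 8026308, on the minus strand. EREG, AREG and BTC lie in 1 cluster on chromosome 4, EREG at 74365143 to 74388751 and AREG at 74445134 to 74455009 on the plus strand, and BTC at 74744759 to 74794686 on the minus strand. The starts of EREG and AREG are 79991 bases apart. Since these neighbours differed in opposite directions between the lines, the 250 bases before each start are shown, from RefSeq on GRCh38.p14, plus strand, at chr4:74364895-74365144 for EREG and chr4:74444886-74445135 for AREG. Capitals mark the motifs found by a search of both strands for the cAMP response element TGACGTCA and the TATA box TATAAA, which do not overlap.

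EREG: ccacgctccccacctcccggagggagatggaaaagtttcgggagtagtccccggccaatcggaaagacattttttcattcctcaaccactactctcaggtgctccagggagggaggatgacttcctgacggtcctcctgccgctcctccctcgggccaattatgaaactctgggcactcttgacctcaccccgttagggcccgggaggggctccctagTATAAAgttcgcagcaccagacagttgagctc
AREG: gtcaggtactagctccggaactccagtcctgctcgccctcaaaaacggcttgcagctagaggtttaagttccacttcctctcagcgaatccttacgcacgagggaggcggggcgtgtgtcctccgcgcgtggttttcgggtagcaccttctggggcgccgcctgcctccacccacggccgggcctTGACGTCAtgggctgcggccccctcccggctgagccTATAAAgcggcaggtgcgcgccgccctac

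Both stretches held TATAAA, 32 bases before the start in EREG and 29 bases in AREG, and AREG alone of the 8 genes matched in the RefSeq table held TGACGTCA, 65 bases before its start. The EGFR window also held TATAAA. Over 35116 promoters, windows with TATAAA made up 10.7% and those with TGACGTCA 1.65%. An AP-1 motif, TGANTCA, was held by 6.57% of them and by the EGFR and ERBB2 windows. These are matches of letters in a window and carry no measurement of binding.

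In U87 mg after 2 h, 0 of 8 genes tested were differentially expressed, as were 0.00% of all 14106 genes tested. An unadjusted p under 0.05 by edgeR was found for 0 of the 8, beside 1239 of the 14106. After 8 h, 0 of 8 were again differentially expressed, beside 0.638% of all genes. For 3 of the 8 (NRG1, EGFR and TGFA) the unadjusted p was under 0.05, as it was for 2241 of the 14106. Against the 2 h samples, 0 of 8 were differentially expressed at 8 h, beside 0.397% of all genes. There the unadjusted p was under 0.05 for 4, beside 2753 of the 14106. The 2 h and 8 h comparisons share the 0 h samples. In limma on log2(TPM + 1) and in DESeq2, the count was likewise 0 in all 3 comparisons.

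NRG1 came nearest to the threshold in U87 mg. It was at 220, 132 and 176 TPM at 0 h, at 211, 188 and 225 TPM at 2 h and at 117, 118 and 172 TPM at 8 h. In TPM 2 of the 3 samples at 8 h lay below all 0 h samples and the third among them. The log2 fold change of counts at 8 h was -0.84 ± 0.20 (SE, 95% interval -1.29 to -0.39) with an adjusted p of 0.0642 by edgeR's quasi-likelihood test. The adjusted p was 0.00452 in DESeq2 and 0.0478 with genes of at least 10 counts in every sample, and 0.0448 without replicate 1 of the 0 h samples, and it ran from 3.03e-06 to 0.511 over 18 alternatives. On log2(TPM + 1) the change was smaller, -0.36, and did not pass (limma, adjusted p = 0.508). The summed level of the 8 astroglial markers was also lower at 8 h in U87 mg (6792 to 7594 TPM) than at 0 h (7713 to 8390 TPM). So was that of the granule-lineage markers without ATOH1 (32.4 to 37.0 TPM against 38.1 to 56.5 TPM). The part of these markers in the results was not tested. Against 2 h, NRG1 was at -0.89 ± 0.21 (adjusted p = 0.0659).

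EGFR in U87 mg was at 43.9, 48.7 and 48.7 TPM at 2 h and at 29.8, 36.9 and 36.3 TPM at 8 h, and the 8 h values did not overlap those at 0 h. In CPM, the counts scaled for depth, it was the 1 gene of 8 whose 3 values at 8 h were all lower than at 0 h, beside 8.68% of all genes, and 0 of 8 were all higher, beside 9.59%. Its log2 fold change at 8 h was -0.26 ± 0.11 (95% interval -0.50 to -0.01, adjusted p = 0.284 by edgeR). EREG was at 839, 860 and 893 TPM at 2 h and at 410, 468 and 614 TPM at 8 h, where its highest sample stayed above the lowest at 0 h. The log2 fold change of EREG was -0.43 ± 0.20 at 8 h against 0 h (adjusted p = 0.326) and -0.69 ± 0.20 against 2 h (adjusted p = 0.115). TGFA was at 49.3, 63.2 and 63.7 TPM at 0 h and 38.7, 57.2 and 39.0 TPM at 8 h (-0.33 ± 0.15, adjusted p = 0.301). HBEGF, ERRFI1, BTC and ERBB2 overlapped between 0 h and 8 h, with log2 fold changes from -0.46 (ERBB2, which was positive in TPM) to 0.23 (ERRFI1). In CPM, ERBB2 at 8 h (1.74, 1.61 and 1.20) lay below its 2 h values (1.98, 2.59 and 2.16). That log2 fold change was -0.55 ± 0.33 (adjusted p = 0.379 by edgeR). EGFR, EREG, TGFA and NRG1 also lay wholly lower in CPM at 8 h than at 2 h, while HBEGF, BTC and ERRFI1 overlapped. The share of all genes so separated at 8 h against 2 h was not computed. The median of the 8 genes was -0.29 at 8 h, beside -0.00124 over all genes.

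**Figure D3:**
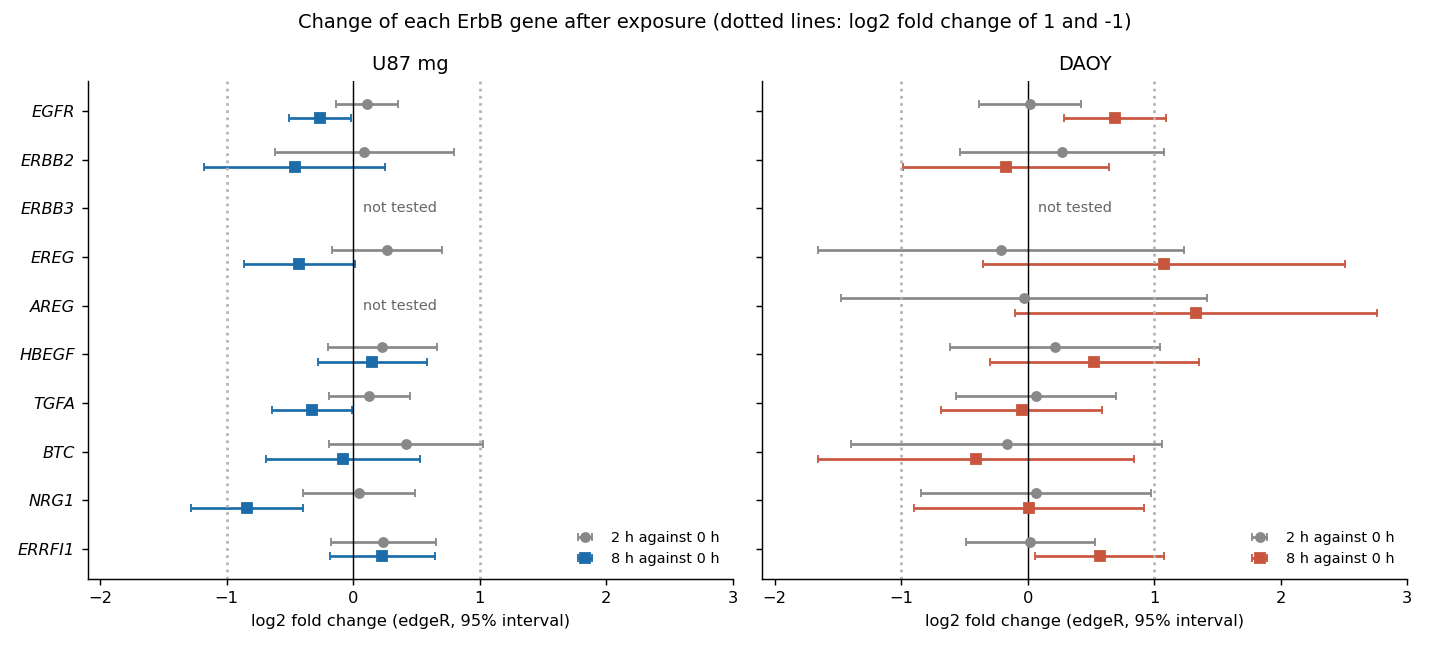
Log2 fold change of each gene at 2 h (circles) and 8 h (squares) against 0 h with its 95% interval from edgeR, U87 mg at left and DAOY at right; dotted lines mark a log2 fold change of 1 in either direction. The NRG1 interval in U87 mg at 8 h (-1.29 to -0.39) and the EGFR interval in DAOY at 8 h (0.29 to 1.10) lie to opposite sides of 0, and neither gene passed the FDR after adjustment over all genes.

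In DAOY after 2 h, 0 of 9 genes tested were differentially expressed, beside 0.00% of all 15396 genes. An unadjusted p under 0.05 by edgeR was found for 0 of the 9, beside 424 of the 15396. After 8 h, 0 of 9 were differentially expressed, beside 3.13% of all genes. There the unadjusted p was under 0.05 for 2 of the 9, beside 3502 of the 15396. Against the 2 h samples, 0 of 9 were differentially expressed, beside 1.04%. Again 2 had an unadjusted p under 0.05, beside 2877 of the 15396. DESeq2 and limma on log2(TPM + 1) also gave 0 in each.

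EGFR came nearest in DAOY, in the direction opposite to U87 mg. It was at 52.9, 46.6 and 57.3 TPM at 0 h, at 54.9, 59.6 and 52.5 TPM at 2 h and at 67.1, 76.4 and 101 TPM at 8 h. Every 8 h sample lay above every other DAOY sample. In CPM, EGFR was the 1 gene of 9 with all 3 values higher at 8 h than at 0 h, beside 12.3% of all genes, and 0 of 9 had all 3 lower, beside 13.8%. The log2 fold change was 0.69 ± 0.18 (SE, 95% interval 0.29 to 1.10), with an adjusted p of 0.0526 by edgeR's quasi-likelihood test. The adjusted p ranged from 0.0112 to 0.192 over 18 alternatives and was below 0.05 in 6 of them, among them DESeq2 (0.0123) and the fit of all 18 samples (0.0112). It was also below 0.05 without replicate 0 at 0 h (0.042) or without replicate 0 at 8 h (0.0486), and at its highest without replicate 2 at 8 h (0.192), where the log2 fold change was 0.53. An antisense gene, EGFR-AS1, overlaps EGFR exons, and reads of the 2 cannot be told apart if strand was not used in counting. The share of counts from mitochondrial genes was also higher at 8 h in DAOY (5.97% to 8.44%) than at 0 h (2.92% to 5.70%). So was the summed level of the granule-lineage markers without ATOH1 (55.0 to 69.0 TPM against 42.1 to 50.7 TPM). The part of mitochondrial genes and of these markers in the result was not tested.

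ERRFI1, the feedback inhibitor of EGFR, was at 175, 181 and 150 TPM in DAOY at 0 h and at 165, 299.6 and 266 TPM at 8 h. 2 of the 3 samples at 8 h stood above all others and replicate 0 lay among the 0 h samples. The log2 fold change was 0.57 ± 0.23 (95% interval 0.06 to 1.08, adjusted p = 0.171 by edgeR). ERRFI1 also overlaps an exon of a gene on the opposite strand, AL034417.4.

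AREG and EREG had the largest standard errors of the 9 genes tested in DAOY at 8 h, 0.65 each. AREG was at 3.76, 21.4 and 9.55 TPM at 2 h and at 12.8, 30.8 and 37.5 TPM at 8 h. EREG was at 3.02, 5.63 and 3.11 TPM at 2 h and at 2.39, 9.39 and 10.8 TPM at 8 h. The 4 samples with the highest AREG were also the 4 with the highest EREG, namely replicates 1 and 2 at 8 h, replicate 1 at 2 h and replicate 2 at 0 h. All 3 times are among them, and replicate 0 at 8 h was at the median of the 9 DAOY samples in AREG and below it in EREG. The log2 fold change at 8 h was 1.33 ± 0.65 for AREG (95% interval -0.10 to 2.76, adjusted p = 0.254) and 1.08 ± 0.65 for EREG (-0.35 to 2.51, adjusted p = 0.365), so neither passed edgeR's test.

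NRG1 in DAOY was highest in replicate 2 at 0 h (48.4 TPM) and replicate 1 at 2 h (40.8 TPM), both among the 4 samples just named, but at 8 h it was at 20.7, 26.0 and 23.6 TPM. Its log2 fold change at 8 h was 0.01 ± 0.41. HBEGF was at 31.8, 7.68 and 15.2 TPM at 0 h and 24.3, 22.1 and 22.4 TPM at 8 h (0.53 ± 0.37, adjusted p = 0.453 by edgeR). TGFA, BTC and ERBB2 overlapped between 0 h and 8 h on the count scale, with log2 fold changes of -0.05, -0.41 and -0.17. In TPM, BTC was lower in all 3 samples at 8 h (0.426, 0.667 and 0.326) than at 0 h (1.61, 1.14 and 1.08), from at most 13 counts a sample. The share of all genes so separated in TPM was not computed.

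The change in DAOY less the change in U87 mg was tested in the fit of all 18 samples. Of 9 genes tested, 0 differed at 2 h, beside 0.00% of all genes, and 0 at 8 h, beside 0.0121%. By edgeR, 0 of the 9 had an unadjusted p under 0.05 at 2 h, beside 1055 of all 16482 genes tested. At 8 h it was 2 of the 9, beside 1463 of the 16482. EGFR had the smallest, with a difference of 0.96 ± 0.22 in log2 fold change (95% interval 0.49 to 1.42, adjusted p = 0.174). EREG differed by 1.52 ± 0.70 (adjusted p = 0.549). DESeq2 called 1 gene at 8 h, EGFR (adjusted p = 0.0141), and edgeR without a filter on low counts called 2, EGFR (adjusted p = 0.0263) and EREG (adjusted p = 0.00074).

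At the level of transcripts, differential expression at 2 h or 8 h was found for 0 of 20 tested transcripts of these genes in U87 mg and 0 of 16 in DAOY, beside 0.00% of all 40613 and 41336 transcripts in each comparison. By edgeR, 5 of the 20 in U87 mg had an unadjusted p under 0.05 at 8 h, beside 2559 of all 40613 transcripts. In DAOY it was 2 of the 16, beside 4276 of all 41336. At 2 h it was 0 in either line, beside 2257 in U87 mg and 1269 in DAOY. DESeq2 called 2 in U87 mg at 8 h, ENST00000356819 of NRG1 and ENST00000507603 of EREG, and 1 in DAOY, ENST00000467067 of ERRFI1. EGFR rested on 1 transcript, ENST00000275493, which held over 99% of its counts in each group. EREG (ENST00000244869), TGFA (ENST00000295400) and ERRFI1 (ENST00000377482) were likewise carried by 1 protein-coding transcript.

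NRG1 had 14 transcripts in the table and 1 that held a large share of its counts, ENST00000356819. In U87 mg this transcript was at 67.3, 40.2 and 63.8 TPM at 0 h, at 58.2, 57.4 and 68.2 TPM at 2 h and at 16.4, 21.0 and 26.6 TPM at 8 h. Every 8 h sample lay below every sample at 0 h and 2 h, and the share of all transcripts with groups so separated was not computed. Its share of the NRG1 counts was 72.1% to 77.7% at 0 h, 74.2% to 79.4% at 2 h and 47.3% to 60.4% at 8 h. The log2 fold change at 8 h was -1.39 ± 0.25 (SE, 95% interval -1.96 to -0.81, unadjusted p = 0.000512), with an adjusted p of 0.262 by edgeR and of 6.2e-05 by DESeq2. In DAOY the same transcript was at 7.42, 3.12 and 9.70 TPM at 0 h and 5.45, 6.41 and 6.89 TPM at 8 h (-0.10 ± 0.46). The other tested NRG1 transcripts in U87 mg also had negative log2 fold changes at 8 h against 0 h, apart from a pair. They were -1.15 ± 0.44 for ENST00000523079, -0.53 ± 0.41 for ENST00000521670 and -0.19 ± 0.31 for ENST00000518206. For ENST00000519301 and ENST00000522402 they were -1.43 ± 1.51 and -2.76 ± 2.14. The pair that did not follow, chosen after their values were seen, was ENST00000631040 and ENST00000405005. ENST00000631040 was at 93.4, 39.2 and 51.8 TPM at 0 h and 47.3, 59.5 and 80.7 TPM at 8 h. ENST00000405005 was at 0, 4.54 and 14.2 TPM at 0 h, at 1.09, 0 and 0 TPM at 2 h and at 23.1, 12.2 and 21.9 TPM at 8 h (log2 fold change at 8 h 1.66 ± 1.55). These transcripts share exons, so the split of counts between them is an estimate.

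**Figure D4:**
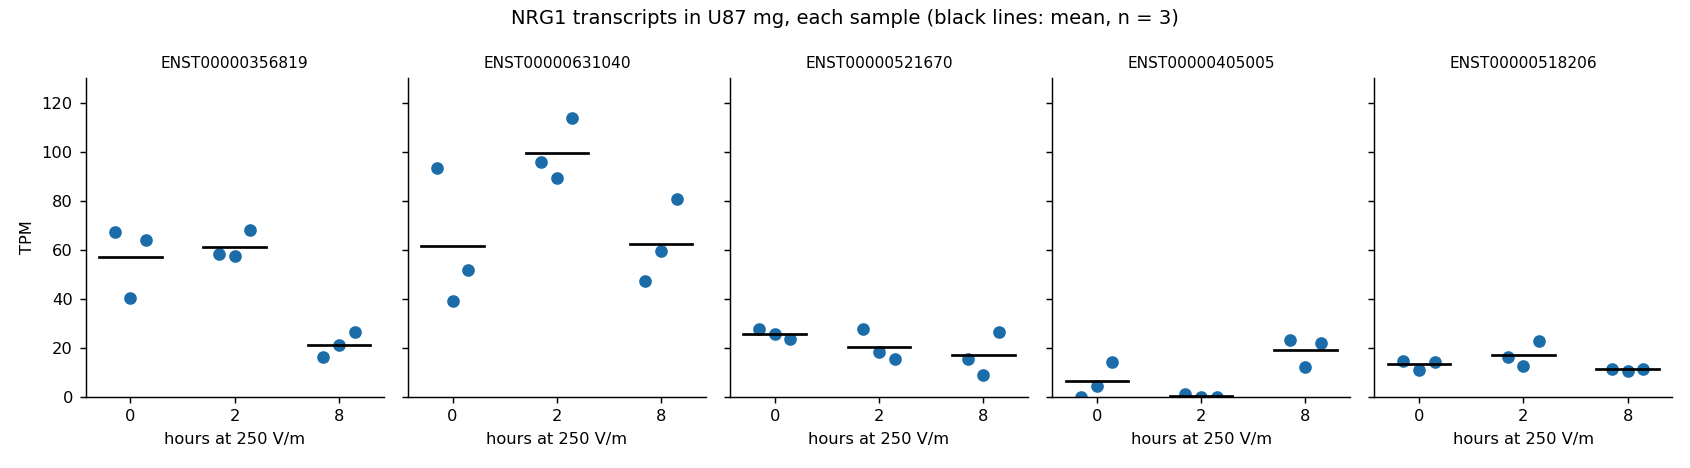
TPM of the 5 NRG1 transcripts with the most TPM at 8 h in U87 mg, in each sample, by hours at 250 V/m, with the mean of 3 samples as a black line. ENST00000356819 was at 16.4 to 26.6 TPM at 8 h, below all samples at 0 h and 2 h, while ENST00000631040 overlapped between 0 h and 8 h.

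HBEGF had 2 transcripts, the protein-coding ENST00000230990 and ENST00000482211, which retains an intron. In U87 mg the retained-intron transcript was at 38.4, 6.13 and 14.2 TPM at 0 h and at 50.3, 42.1 and 48.9 TPM at 2 h. All 3 values at 2 h were above those at 0 h, and the log2 fold change was 1.23 ± 0.58 (95% interval -0.10 to 2.55, adjusted p = 0.878 by edgeR). At 8 h it was at 19.6, 20.8 and 29.1 TPM. The protein-coding transcript was at 57.9, 52.0 and 63.3 TPM at 0 h and 70.8, 45.4 and 61.5 TPM at 8 h. In DAOY the high HBEGF value of replicate 0 at 0 h came with 22.6 TPM of the retained-intron transcript. The protein-coding one was at 9.24, 5.72 and 12.1 TPM there at 0 h and at 17.1, 14.8 and 12.8 TPM at 8 h. These groups did not overlap (0.75 ± 0.33, adjusted p = 0.491 by edgeR). How many of all transcripts had groups separated in this way was not computed.

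Of the other genes of the pathway, the 6 further receptors and ligands were at no more than 8.08 TPM in any sample. In DAOY, NRG4 reached 8.08 TPM and EGF 6.73 TPM, beside at most 7.97 TPM for TGFA. The ligand sums given above leave these 6 genes out. Of the 6, 2 could be tested within each line, EGF and NRG2 in U87 mg and EGF and NRG4 in DAOY, and 0 passed at 8 h. EGF itself had a mean of 2.31 ± 0.72 TPM in U87 mg and 4.15 ± 2.02 TPM in DAOY at 0 h (SD, n = 3). At 8 h in DAOY it was at 3.82, 4.47 and 6.73 TPM, overlapping 0 h (0.89 ± 0.24, adjusted p = 0.0534 by edgeR). Of the 8 genes for shedding and maturation of ligands, 0 passed in either line at 8 h, where 0.950% of all genes were higher and 0.773% lower in U87 mg and 2.34% and 3.50% in DAOY at an FDR below 0.05. The main sheddases were abundant, ADAM10 at 173 ± 26.1 TPM in U87 mg and 259 ± 81.4 TPM in DAOY, and ADAM17 at 52.5 ± 5.49 and 73.2 ± 6.02 TPM at 0 h.

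Of the 16 genes for receptor attenuation and trafficking, 1 rose and 0 fell in U87 mg at 8 h, beside 0.950% and 0.773% of all genes at an FDR below 0.05. In DAOY, 2 rose and 0 fell at 8 h, beside 2.34% and 3.50%. CBL, a ubiquitin ligase that marks activated EGFR for degradation, was at 11.6 to 14.3 TPM at 0 h and 17.4 to 21.0 TPM at 8 h in U87 mg (log2 fold change 0.64 ± 0.14, adjusted p = 0.0475 by edgeR). In DAOY, CBL was at 12.9 to 13.4 TPM at 0 h and 20.2 to 26.0 TPM at 8 h (0.87 ± 0.16, adjusted p = 0.0166). CBLB, a related ligase, rose in DAOY from 16.2 to 23.5 TPM at 0 h to 45.5 to 47.8 TPM at 8 h (1.08 ± 0.17, adjusted p = 0.0106). No sample of either gene at 8 h overlapped 0 h in these comparisons. In CPM, 9.59% of all genes in U87 mg and 12.3% in DAOY were likewise wholly higher at 8 h. Against the 2 h samples of DAOY, the same 2 genes of this list were higher at 8 h and 0 lower, beside 0.669% and 0.916%, with CBLB at 0.92 ± 0.17 (adjusted p = 0.0303) and CBL at 0.77 ± 0.16 (adjusted p = 0.0404).

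Of the 15 genes induced by ErbB and ERK signalling, 1 rose at 8 h in U87 mg, 4 rose in DAOY, and 0 fell in either. Over all genes tested, 0.950% rose and 0.773% fell in U87 mg, and 2.34% rose and 3.50% fell in DAOY. EGR1, an immediate early transcription factor, was at 12.3 to 14.9 TPM at 0 h in U87 mg and at 14.5 to 57.8 TPM at 8 h (1.66 ± 0.38, adjusted p = 0.0486 by edgeR). In DAOY, EGR1 rose from 46.1 to 58.1 TPM to 65.4 to 138 TPM (1.17 ± 0.29, adjusted p = 0.0427). SPRY4 and SPRY2, feedback inhibitors of receptor tyrosine kinase signalling, rose in DAOY by 1.24 ± 0.20 (adjusted p = 0.0111) and 0.83 ± 0.20 (adjusted p = 0.038). FOSL1, a subunit of AP-1, rose in DAOY by 0.94 ± 0.21 (adjusted p = 0.028). In U87 mg the same 3 genes were at 0.10 ± 0.16, -0.16 ± 0.14 and 0.21 ± 0.19. The median log2 fold change of this list was 0.49 in DAOY at 8 h, beside -0.01 for all genes tested, and 0.21 in U87 mg, beside -0.00124. Of the 14 tested adaptors and proximal effectors, CRKL, an SH2 and SH3 adaptor, rose in DAOY by 0.68 ± 0.14 (adjusted p = 0.0216), PIK3R1, a regulatory subunit of PI3K, fell there by 0.65 ± 0.15 (adjusted p = 0.0389), and 0 passed in U87 mg. Leaving out replicate 1 at 8 h in DAOY ended all 8 calls there, with CBLB and SPRY4 at adjusted p of 0.0553 and 0.0591, and leaving out replicate 2 at 8 h ended 7, all but SPRY4. EGR1 in U87 mg was high at 8 h in replicates 0 and 2 (44.1 and 57.8 TPM) and within its 0 h range in replicate 1 (14.5 TPM). EGR1 and CBL in U87 mg passed in 5 and 3 of 18 alternatives, and in DAOY SPRY4 passed in 17, CBLB in 16, CBL in 14, CRKL in 11, FOSL1 in 8, SPRY2 and EGR1 in 7 each and PIK3R1 in 5.

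**Figure D5:**
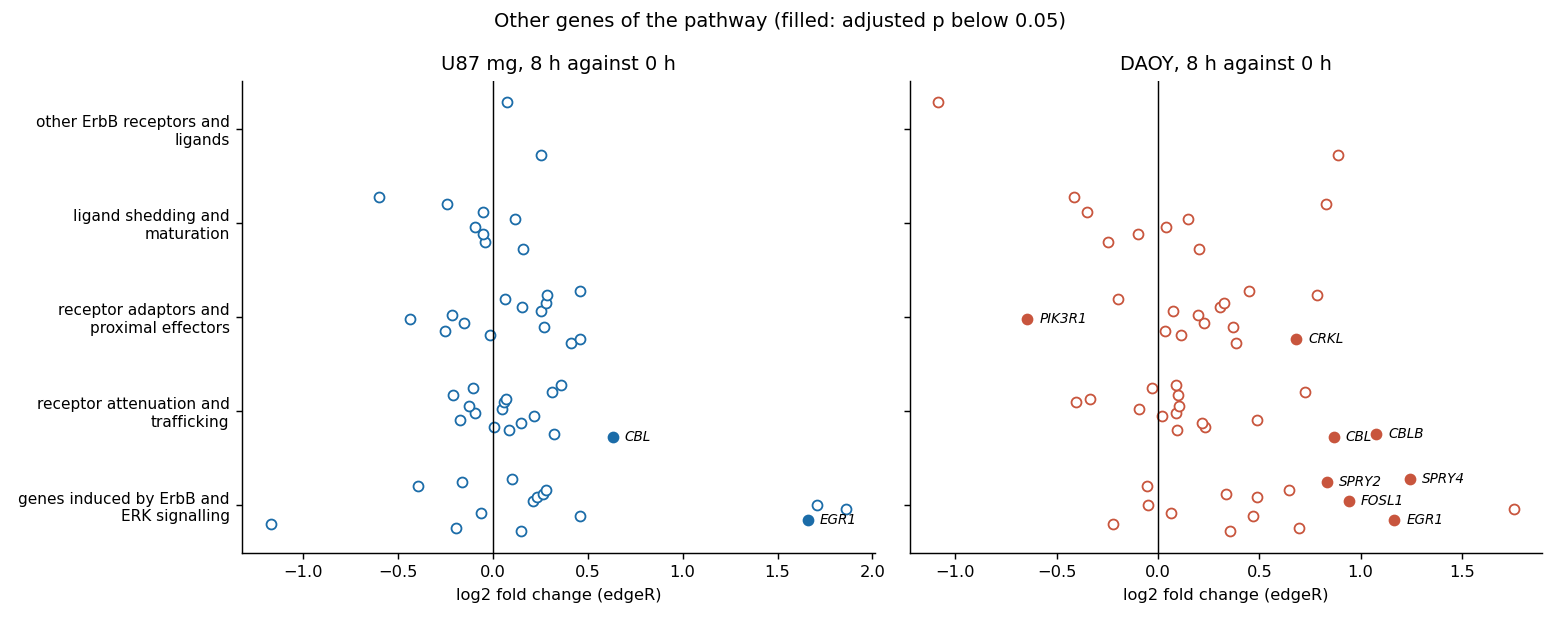
Log2 fold change at 8 h against 0 h of the tested genes of 5 lists of the ErbB pathway, U87 mg at left and DAOY at right; filled points passed an FDR below 0.05 and are named. In U87 mg 2 genes passed (CBL and EGR1), and in DAOY 8 did, all of them higher at 8 h but for PIK3R1.

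Between the lines at 0 h, 32.8% of all genes were higher and 27.9% lower in DAOY at an FDR below 0.05. Of the 15 genes induced by ErbB and ERK signalling, 3 were higher and 7 lower in DAOY, among them FOSL1 (-2.45 ± 0.21), SPRY2 (-2.23 ± 0.19), DUSP4, an ERK phosphatase (-2.04 ± 0.27), and MYC (-1.31 ± 0.17). Of the 8 shedding genes, 3 were higher and 3 lower, with ADAM9 (-2.06 ± 0.15) and ADAM12 (-1.66 ± 0.22) lower and ADAM19 (2.57 ± 0.19) and BACE1 (1.70 ± 0.15) higher in DAOY. For attenuation and trafficking it was 5 and 5 of 16, with LRIG3 higher (2.23 ± 0.22) and SH3KBP1 lower (-1.12 ± 0.11), and for the adaptors 3 and 1 of 14. Of the 3 tested further ligands, NRG2 was lower in DAOY (-3.35 ± 0.48) and NRG4 higher (2.15 ± 0.84).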

How the data were processed

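RNA of 18 samples, 3 for each of 2 cell lines and 3 times, was sequenced by the authors from poly-A selected, stranded libraries (single-end reads). Reads were trimmed with the FASTQC Toolkit (2.0.0) and assigned to GENCODE 24 transcripts (GRCh38.p5) with Kallisto (0.43.0). The table deposited by the authors gives each transcript an estimated count and a TPM in every sample, and 0 of its 36 columns of per-sample values could not be assigned to a sample. It also holds p-values, q-values and fold changes of the authors' own comparisons (Sleuth 0.28.1), which were not used here. Whether Kallisto used strand is not given in the sources used here, which leaves genes with an overlapping partner on the other strand uncertain. The authors chose the 3 preparations with the best quality control for each condition.

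Estimated counts were summed by gene name, rounded, filtered with filterByExpr and scaled by TMM, and each line's 9 samples were fitted with edgeR 4.0.16 (glmQLFit, glmQLFTest; R 4.3.3). Differences between lines used all 18 samples. Differential expression required FDR < 0.05 over all genes and an absolute log2 fold change of 1 or more, and "rose" and "fell" mean FDR < 0.05. The SE is the log2 fold change divided by the square root of F. Main transcripts held at least 20% of a gene's counts in some group. All 10 genes are named, and up to 4 genes with the smallest adjusted p from each pathway list and comparison (5 lists). ERBB4, EGF, ADAM10 and ADAM17 were named outside this rule. The NRG1 transcript pair is said to be chosen after its values were seen. Genes most alike a member were to be named only for members differentially expressed against 0 h, of which there were 0. Members and lists were chosen with earlier results of these data known. Same-numbered samples did not all deviate together, so the main fits have no replicate block. P-values measure the spread between preparations of 1 line. Alternatives were DESeq2 1.42.0, limma 3.58.1 on log2(TPM + 1) and log2(TPM + 0.1), RLE scaling, other filters and sample sets, a replicate block and leaving out each sample; the fits were tested on simulated data. Totals of 8341976 to 15610886 counts limit the precision of genes with few counts.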

Additional observations from a re-analysis of the deposited data

Results flagged for a closer look

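The change of EGFR at 8 h was singled out because its 3 values at 8 h all lay below those at 0 h in U87 mg and all above those at 0 h in DAOY. The difference of the changes, DAOY minus U87 mg, was 0.96 ± 0.22 in log2 fold change (SE, n = 3 per group), from -0.26 in U87 mg and 0.69 in DAOY. The interaction had an unadjusted p of 0.00042 and an adjusted p of 0.174 by edgeR's quasi-likelihood test, and so did not pass. Over 25 alternatives, the difference ran from 0.78 to 1.11 and the adjusted p from 0.0141 to 0.392, below 0.05 in 2 of them. Among the 8 genes tested within both lines, EGFR alone showed this pattern, and the share of all genes that show it was not computed. In CPM, 8.68% of all genes lay wholly lower at 8 h in U87 mg, and 12.3% wholly higher in DAOY. The gene was picked by the same values that the interaction tests, so its unadjusted p is not independent of that choice. Groups of 3 samples are too small for the check of single outlying samples.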

How the results depend on the processing

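The 13 counts of differentially expressed genes or transcripts were recomputed under every alternative, where 242 values stayed within 1.5 times the value reported and 5 moved. In U87 mg at 8 h, the count of 0 became 1 without replicate 1 of the 0 h samples (NRG1, log2 fold change -1.03), so the range over left-out samples was 0 to 1. For the 8 h difference between lines, DESeq2 gave 1 gene and the fit without a filter gave 2. For transcripts at 8 h, DESeq2 gave 2 in U87 mg and 1 in DAOY. With a replicate block all counts of members were as reported (2 higher and 5 lower in DAOY at 0 h, a total of 7, and 0 in every other comparison), and same-numbered samples had correlations of deviations from -0.21 to 0.30 in U87 mg and -0.23 to 0.49 in DAOY, 5 and 3 of 9 pairs above 0.1. All 3 pairs of 2 h and 8 h samples of U87 mg were above 0.1 (0.30, 0.16 and 0.25), and in that comparison the block also left 0 members past the FDR (NRG1, adjusted p = 0.0528). NRG1 in U87 mg at 8 h passed the FDR with the block (adjusted p = 0.0451), as it did in 5 of 18 alternatives in all, and EGFR in DAOY at 8 h in 6 of 18. Among pathway genes at 8 h, the block ended the calls of CBL and EGR1 in U87 mg and of CRKL, FOSL1, PIK3R1 and SPRY2 in DAOY, and no other call changed with it. Signs turned in 41 recomputed changes, all of genes that did not pass. On log2(TPM + 1) and log2(TPM + 0.1), ERBB2 in U87 mg at 8 h came to 0.15 and 0.23, EREG in DAOY at 2 h to 0.10 and 0.15, and NRG1 in DAOY at 8 h to -0.10 and -0.089. NRG1 in DAOY at 8 h was also -0.000608 without a filter, -0.000186 with the replicate block and -0.017 in the fit of all 18 samples, where EGFR and ERRFI1 in DAOY at 2 h were -0.016 and -0.00565. With 1 sample left out, the log2 fold changes that turned ranged as follows: in DAOY at 2 h AREG from -0.81 to 0.60, BTC from -0.52 to 0.20, EGFR from -0.12 to 0.14, ERBB2 from -0.041 to 0.78, EREG from -0.78 to 0.40, ERRFI1 from -0.10 to 0.15, HBEGF from -0.15 to 0.74, NRG1 from -0.38 to 0.42, TGFA from -0.052 to 0.26, and in DAOY at 8 h ERBB2 from -0.48 to 0.36, NRG1 from -0.36 to 0.37, TGFA from -0.37 to 0.12, and in U87 mg at 2 h ERBB2 from -0.092 to 0.29, NRG1 from -0.14 to 0.19, and in U87 mg at 8 h BTC from -0.30 to 0.14. The alternatives for the pathway lists, the difference between lines at 0 h and the EGFR interaction were chosen after seeing the data. Genes with few counts, ERBB3 in both lines, AREG in U87 mg and BTC in DAOY, were limited by depth. The cause of these differences was not tested.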
